A study of Mus musculus with 2 samples.

Results

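The genes described here are the keratins and the building blocks of tight junctions, gap junctions and desmosomes, followed in Colon26 tumours and their liver metastases. They were chosen by current gene symbol: keratins, claudins, occludin, the ZO proteins (Tjp genes), the cingulins Cgn and Cgnl1, connexins of the Gja to Gjd families, desmogleins, desmocollins, desmoplakin and plakophilins. The platform named 70 such genes, and 48 of them had a value on both arrays, out of 13506 named genes with a value on both. Of the other members, 13 had a value on 1 array and 9 had none. The reason for a missing value is not given in the sources used here.

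Colon26 is a mouse colon carcinoma line. Cultured cells were injected under the mucosa of the rectum of Balb/c mice, and RNA was extracted both from tumours at the site of injection and from the metastases that formed in the liver. Each of 2 arrays held 1 primary tumour (Cy5) and 1 liver metastasis (Cy3), grown and harvested independently, so n = 2 throughout. The ages of the mice are not given, nor is it stated whether host cells were removed from the tumour tissue. Values are log ratios of both channels, taken as log2. The sources do not say which channel is the numerator, so results are given as the positive and the negative side, and neither side is assigned to the metastasis. Both arrays had the same dye orientation, so a dye bias of a probe remains in its ratio. The table holds ratios and no levels, so the presence of an epithelial program in either tissue could not be checked, and fewer cells of a type cannot be told apart from less RNA per cell.

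Keratins are the intermediate filament proteins of epithelia, and each filament pairs a type I with a type II keratin. Claudins and occludin seal the space between epithelial cells at tight junctions, where ZO proteins and cingulins tie them to actin. Connexins form the channels of gap junctions, through which ions and small molecules pass from cell to cell. Desmosomes join keratin filaments of neighbouring cells through desmosomal cadherins, and plakophilins and desmoplakin link those cadherins to the filaments. Intestinal epithelium and colon carcinomas with epithelial character typically carry Krt8, Krt18, Krt19 and Krt20, of which Krt19 and Krt20 were measured. Krt8 and Krt18 were not analysed here.

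Of the 48 members, 4 had a ratio that differed from 0 at an adjusted p under 0.05 in limma, which is 8.33% of them, against 2.9% of all genes. Cgnl1 lay on the negative side, as did 0.777% of all genes by this test, and Krt88, Gjd4 and Pkp1 lay on the positive side, as did 2.12%. The first 3 of these were also at least 1 unit from 0 on both arrays, which held for 2.27% of all genes. None of these shares was compared by a test. The families had no common side: 15 members were above 0 on both arrays, 19 below it on both, and the other 14 had mixed signs or a value of 0. Among all genes, 33.9% were positive on both arrays and 38.2% negative on both. The median ratio of the members was 0.07, with medians of -0.02 on array 1 and -0.02 on array 2, and the median of all genes was -0.02. Within 0.5 of 0 lay 36 of the 48 members, or 75.0%, and 78.2% of all genes. An unadjusted p under 0.05 was met by 13 members, while 27.5% of all genes met it. Counts given below for families and lists stand beside the same shares of all genes, 2.9% called and 27.5% at an unadjusted p. They were not compared by a test.

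**Figure D1:**
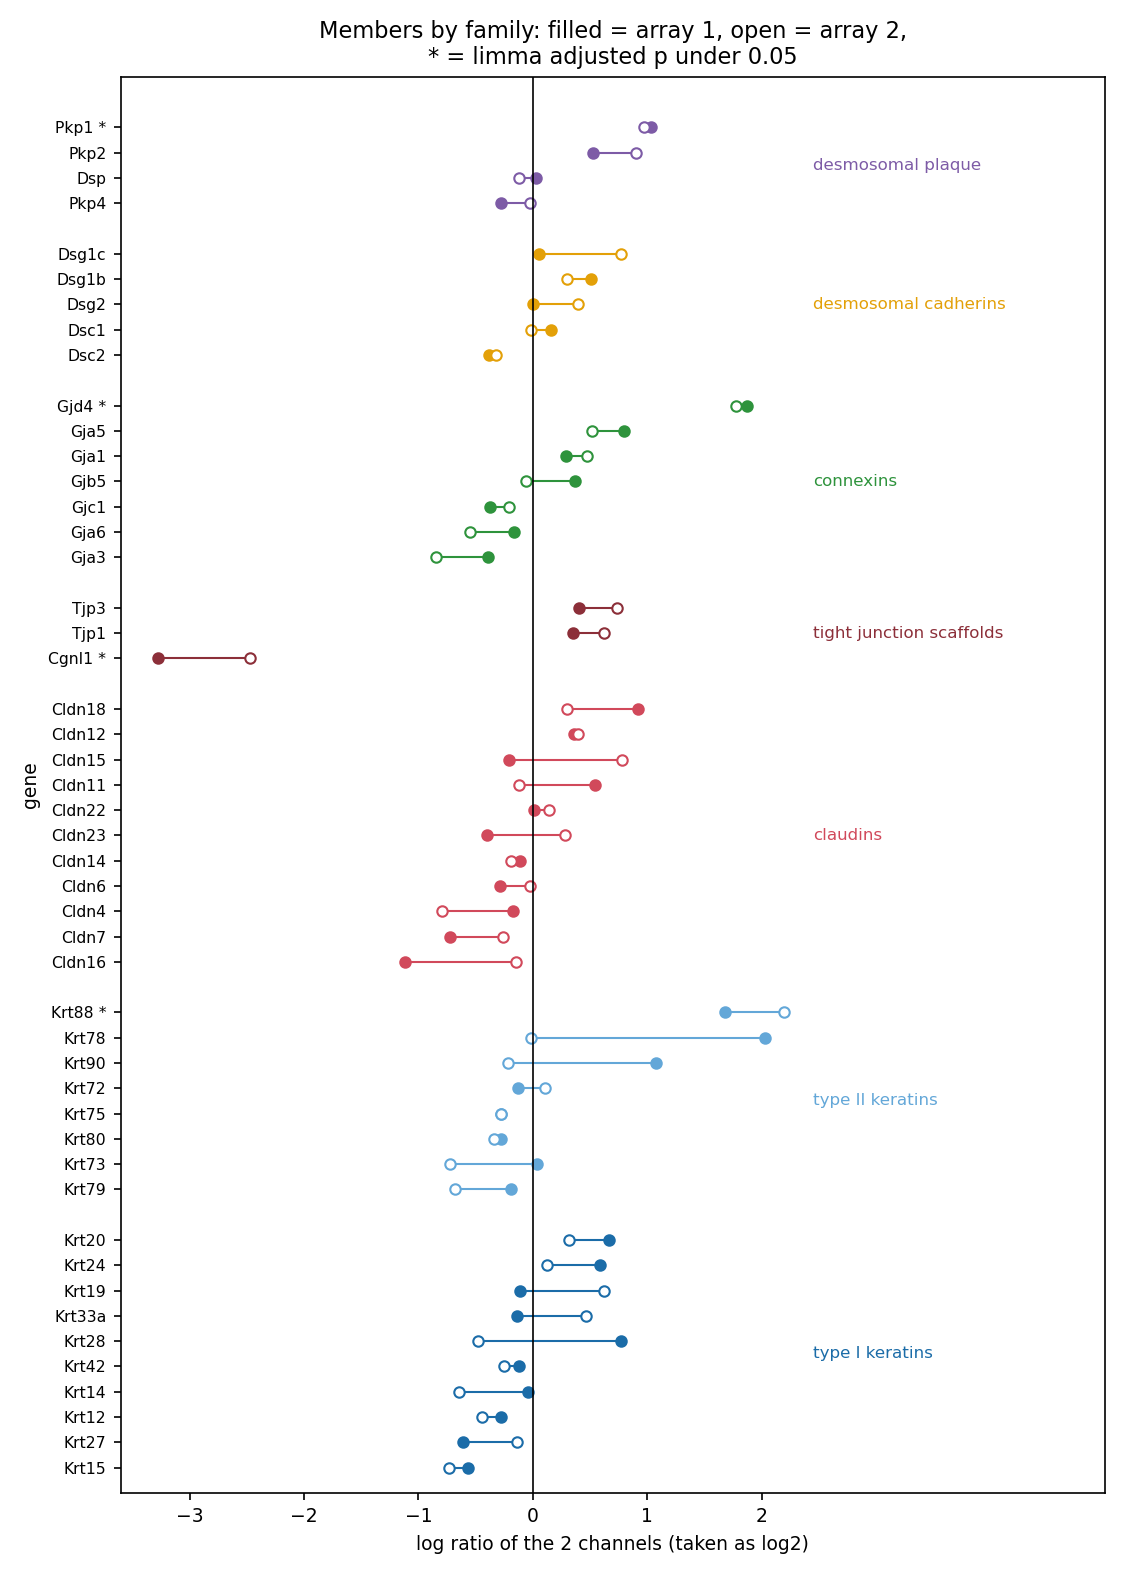
Log ratio (taken as log2) of each of the 48 members on array 1 (filled) and array 2 (open), joined by a line and grouped by family, with an asterisk on the 4 genes past a limma adjusted p of 0.05. Cgnl1 stands alone on the far negative side, at -3.28 and -2.48, while Krt88, Gjd4 and Pkp1 lie on the positive side of both arrays and Krt78 runs from 2.03 to -0.01.

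Among tight junction scaffolds, Cgnl1 had the widest ratio of all members. It encodes paracingulin, a cytoplasmic protein of tight and adherens junctions. Its log ratio was -3.28 on array 1 and -2.48 on array 2. Both arrays were far on the negative side, and the mean of -2.88 ± 0.57 (SD, n = 2) corresponds to 7.35-fold if the log is base 2 and to 17.8-fold if it is natural. In limma the 95% interval was -3.48 to -2.28 and the adjusted p was 0.0282. Counted from the negative end, Cgnl1 ranked 7 among the 13506 genes. The related scaffolds went to the other side. Tjp1, which encodes ZO-1, had 0.35 and 0.62, and Tjp3, which encodes ZO-3, had 0.40 and 0.74. Both were positive on both arrays, but neither passed over all genes (limma adjusted p = 0.146 and 0.122). Occludin had no value on either array, and Cgn was not analysed here.

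The promoters of Cgnl1, the widest member, and of Krt20, the intestinal keratin whose probes disagreed from each other, are printed as reference sequence from RefSeq (GRCm38.p6), 250 bases before to 50 after the gene's start, both on the minus strand. The Cgnl1 window is chr9:71771553-71771852 and the Krt20 window chr11:99438104-99438403. Capitals mark the TATA box letters TATAAA, the GC box letters GGGCGG and the E-box letters CAGGTG, the latter bound by Snail and Zeb repressors, searched on both strands.
Cgnl1: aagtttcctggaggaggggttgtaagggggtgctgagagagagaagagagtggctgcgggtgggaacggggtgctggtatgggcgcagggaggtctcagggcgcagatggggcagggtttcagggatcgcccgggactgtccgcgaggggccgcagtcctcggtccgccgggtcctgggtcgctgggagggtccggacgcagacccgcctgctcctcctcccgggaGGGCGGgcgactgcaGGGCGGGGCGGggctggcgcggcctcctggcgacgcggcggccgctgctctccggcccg
Krt20: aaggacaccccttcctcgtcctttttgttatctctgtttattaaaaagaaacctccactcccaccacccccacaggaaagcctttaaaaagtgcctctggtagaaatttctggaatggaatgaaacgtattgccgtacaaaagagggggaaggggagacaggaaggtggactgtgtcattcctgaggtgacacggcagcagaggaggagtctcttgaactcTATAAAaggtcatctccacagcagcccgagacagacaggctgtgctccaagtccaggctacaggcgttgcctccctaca
The Cgnl1 window held 3 copies of GGGCGG, of which 2 overlap by a base, no TATAAA and 30 CG pairs. The Krt20 window held 1 TATAAA, no GGGCGG and 6 CG pairs, against a median of 7 over all windows. Neither held CAGGTG.

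The motif counts are a description that does not use the arrays, and they were not compared by a test. Of the 48 measured members, 33 had a promoter in the RefSeq table, with 42 windows. TATAAA was found in 7 of 13 keratin windows and in 2 of 29 windows of junction genes, and in 13.6% of all 32851 windows. GGGCGG was found in 1 keratin window and in 13 junction windows, against 35.7% of all. CAGGTG was found in 5 keratin and 9 junction windows, against 20.2% of all, among them those of Cldn4, Cldn7, Dsp and Tjp3. A match describes letters in a window and does not show a bound site.

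Claudins, the sealing and pore-forming proteins of tight junctions, had a median of -0.06 and means from -0.63 to 0.61. The median size of their means, without the sign, was 0.28, against 0.27 over all genes. Of 19 named on the platform, 11 had both values, 3 of them positive and 5 negative on both arrays. Limma called 0 of 11, with 2 at an unadjusted p under 0.05. The epithelial claudins Cldn4 and Cldn7 were on the negative side. Cldn7 had -0.72 and -0.26, and Cldn4 had -0.17 and -0.79, so for both the size on 1 array was more than 2 times that on the other. The 95% limma interval was -0.95 to -0.02 for Cldn7 and -1.01 to 0.04 for Cldn4. Cldn16, a kidney claudin of magnesium reabsorption, had -1.12 and -0.14. On the positive side, Cldn18, known from stomach and lung, had 0.92 and 0.30, and Cldn12 had 0.36 and 0.39. The other 6 measured claudins had means from -0.16 (Cldn6) to 0.28 (Cldn15), with Cldn15, a pore-forming claudin of the gut, at -0.21 and 0.78.

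Several claudins had a value on 1 array only and were not tested. Cldn2, which forms cation pores in leaky epithelia, had 1.02 on array 2. Cldn5, the claudin of endothelial cells, had 0.94 on array 1. Cldn17 had 0.89 on array 1 and Cldn13 0.56 on array 2. All of these single values were positive. Cldn1, Cldn8, Cldn10 and Cldn34b2 had none.

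Among connexins, Gjd4 was the gene past the threshold. It is known from developing and regenerating skeletal muscle. Its log ratio was 1.87 on array 1 and 1.77 on array 2, a mean of 1.82 ± 0.07 (SD, n = 2), which is 3.53-fold at base 2 and 6.18-fold for a natural log. Both arrays gave nearly the same value (limma 95% interval 1.43 to 2.21, adjusted p = 0.0282). The muscle markers are given beside it: 7 of 11 measured were positive on both arrays and 3 negative on both, with means from -0.65 to 1.27 and a median of 0.26. Cnn1, a smooth muscle calponin, and Actn3, an actinin of fast skeletal muscle, passed on the positive side (limma adjusted p = 0.0472 and 0.0438), and each lost its call in 5 of 9 other settings. Other smooth muscle genes did not share the side of Cnn1. Acta2 had -0.51 and -0.15, Actg2 -0.64 and -0.66, and Smtn -0.54 and -0.56, and these were the 3 negative on both arrays. Myh11 had -0.23 and 0.34. The part of these markers in the ratio of Gjd4 was not tested.

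Other connexins lay on both sides. Gja1, the most widely expressed connexin, had 0.29 and 0.47 (limma adjusted p = 0.193). Gja5, a connexin of arterial endothelium and the heart's atria, had 0.80 and 0.52, both positive, and missed the threshold (limma adjusted p = 0.0937). Most endothelial markers were on the same side, with 7 of 10 positive on both arrays and 1 negative on both, means from -0.49 to 1.25 and a median of 0.45. The negative one was Egfl7, at -0.61 and -0.38, and Emcn and Vwf had mixed signs. Flt1 and Robo4 passed near the threshold (limma adjusted p = 0.0475 and 0.0492) and lost their calls in 6 and 8 of 9 other settings. Their part in the ratio of Gja5 was not tested. Gja3, the lens connexin, had -0.39 and -0.84, and Gja6, a connexin of the testis, had -0.16 and -0.55. Neither passed (limma adjusted p = 0.121 and 0.249). Gjb5, an epidermal connexin, had opposite signs, 0.37 and -0.06. Gjb1, the main connexin of hepatocytes, had 0.37 on array 1 only, and Gja4, another endothelial connexin, -0.77 on array 2 only. Gjb2, Gjb6 and Gja10 had no value.

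Gjc1 is best read probe by probe. The probe that the platform names Gja7, an older symbol of Gjc1, had 0.18 and 0.21. The probe it names Gjc1 had -0.93 and -0.62. The values of each probe were alike on both arrays, and the probes lay on opposite sides. RefSeq lists Gjc1 as an older name of Gjd3 too, so the second probe may measure that gene. In the limma fit on probes the adjusted p was 0.446 for the former and 0.0887 for the latter.

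The desmosomal cadherins, which bridge the gap between cells, held 0 calls in limma among 5 measured, with 0 at an unadjusted p under 0.05. Dsg2 and Dsc2, the pair found in simple epithelia such as the gut, went apart. Dsg2 had 0.00 and 0.39, and Dsc2 had -0.38 and -0.32. The 95% limma intervals, -0.25 to 0.64 and -0.74 to 0.03, both contained 0. The epidermal desmogleins Dsg1b and Dsg1c were positive on both arrays, at 0.51 and 0.30 and at 0.05 and 0.77. Dsc1 had 0.16 and -0.01. Dsg4, a desmoglein of the hair follicle, had 2.36 on array 1 and no value on array 2, and Dsg3, of basal epidermis, had 0.80 on array 2 only. Dsc3 had no value.

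In the desmosomal plaque, Pkp1 was the gene past the threshold. Pkp1, the plakophilin of stratified epithelia, had 1.03 on array 1 and 0.97 on array 2. The mean of 1.00 ± 0.04 (SD, n = 2), a difference of 2.00-fold at base 2 and 2.72-fold for a natural log, passed the threshold (limma adjusted p = 0.0475, 95% interval 0.61 to 1.39). The call is close to the threshold: it was lost in 7 of 9 other settings, for example under robust moderation (limma adjusted p = 0.051) and in the fit on probes (0.0582). Pkp2, the plakophilin of simple epithelia and heart, was on the same side at 0.53 and 0.90 but did not pass (limma adjusted p = 0.0907). Pkp4 had -0.28 and -0.03, and Pkp3 had -1.14 on array 2 only. Dsp, desmoplakin, the obligate plaque protein of desmosomes, had 0.03 and -0.12. Its 95% limma interval, -0.44 to 0.35, contained 0. Squamous epithelium markers had a median of -0.06 over 10 measured genes, with 4 positive and 5 negative on both arrays, means from -0.58 to 0.74 and 0 called by limma (4 at an unadjusted p under 0.05).

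**Figure D2:**
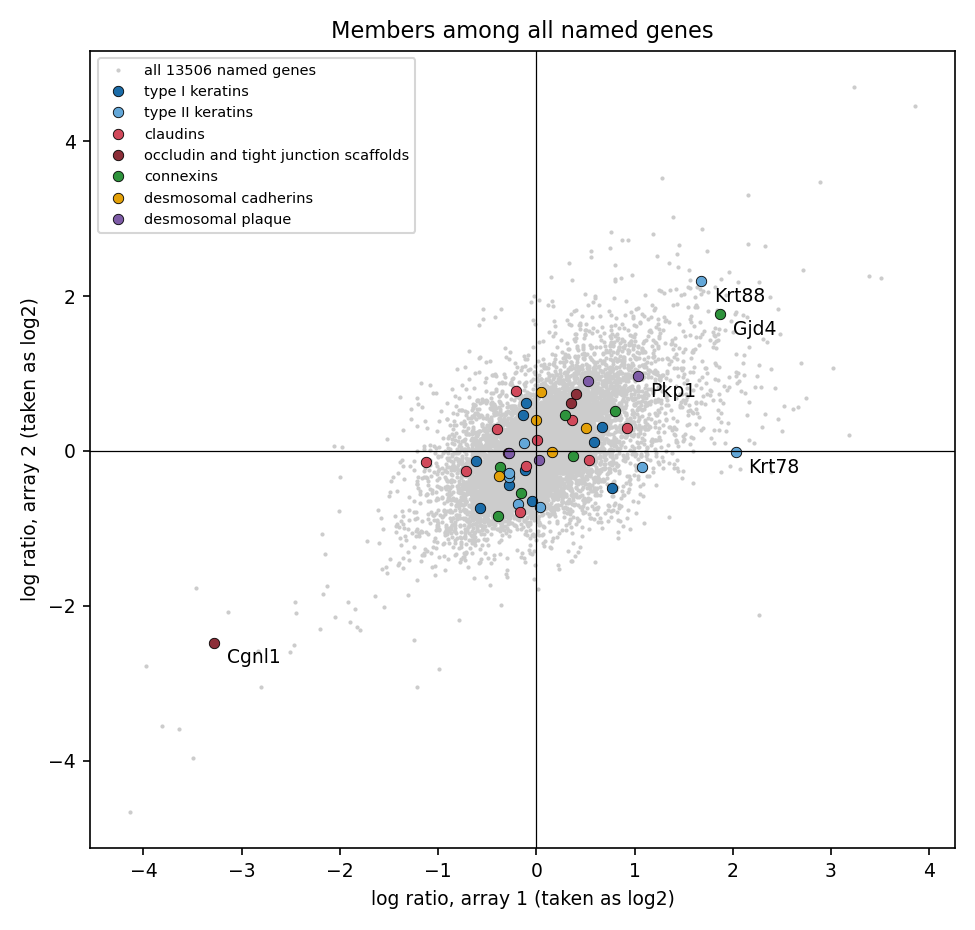
Log ratio on array 1 (x axis) against array 2 (y axis), both taken as log2, for all 13506 named genes (grey) and the 48 members (coloured by family). Cgnl1 lies at the lower left and Krt88, Gjd4 and Pkp1 at the upper right, while Krt78 lies at 2.03 on array 1 and -0.01 on array 2.

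Type I keratins gave 0 calls in limma among 10 measured, with 2 at an unadjusted p under 0.05. Krt15, a keratin of basal cells and hair follicle stem cells, was the lowest, at -0.57 and -0.73 (limma adjusted p = 0.0901). Krt14, a keratin of basal epidermis, had -0.04 and -0.64. Both were negative on both arrays. Krt19, the simple epithelial keratin, had -0.11 and 0.62, so its sign differed between arrays. Its 95% limma interval, -0.31 to 0.82, contained 0. Krt27, an inner root sheath keratin, had -0.61 and -0.14. The other type I keratins with a single probe, Krt12, Krt28, Krt33a and Krt42, had means from -0.36 to 0.16. Krt13, Krt39 and Krt222 had 1 value each, -0.51 on array 2, 0.39 on array 1 and 0.20 on array 1. Krt25 had 2 probes with a value on array 2 only, at 2.15 and 0.25.

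Krt20, the keratin of intestinal epithelium and a common marker of colon carcinoma, was measured by 2 probes. The probe that the platform names 9030623C06Rik had 1.66 and 0.83, a mean of 1.25 ± 0.58 (SD, n = 2). The probe named Krt21 had -0.33 and -0.21, a mean of -0.27 ± 0.09. RefSeq gives both names as synonyms of Krt20, yet the probes lay on opposite sides on both arrays. Neither passed in the fit on probes (limma adjusted p = 0.0762 and 0.317), and their average of 0.49 describes neither. Krt24 also had probe means on opposite sides, but its probes differed in sign on array 2 only. Its probe named Krt24 had 1.16 and 0.57 and the probe named 2310058N18Rik 0.01 and -0.33. Opposite signs were common on this platform, with 81 of the 161 genes with exactly 2 probes, but a gap as wide as that of Krt20 was not. The median gap between the means was 0.42 and the 90th percentile 1.17. The gap of 1.52 for Krt20 was reached by 7 genes, Krt20 included, and the gaps were 1.03 for Krt24 and 0.97 for Gjc1. A call on a member with 1 probe has no such check, and that holds for all 4 called members.

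**Figure D3:**
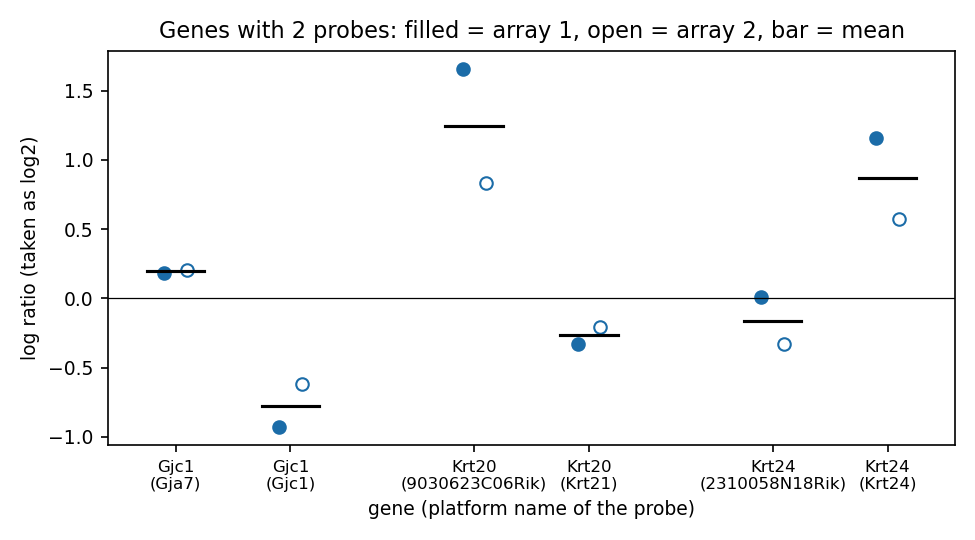
Log ratio (taken as log2) of each probe of Gjc1, Krt20 and Krt24 on array 1 (filled) and array 2 (open), with the mean as a bar and the platform's name of the probe in brackets. Within each gene the means lie on opposite sides of 0, with 1.25 and -0.27 for Krt20.

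Among type II keratins, Krt88 stood apart. Its log ratio was 1.68 on array 1 and 2.19 on array 2, a mean of 1.94 ± 0.36 (SD, n = 2), which is 3.83-fold at base 2 and 6.93-fold for a natural log. Both arrays were far on the positive side (limma adjusted p = 0.0283, 95% interval 1.45 to 2.42), and the gene ranked 29 from the positive end. Its neighbours in the type II keratin cluster, in RefSeq's gene order of measured members, were Krt80 at -0.28 and -0.34 and Krt90 at 1.08 and -0.21. The order went on with Krt75, the companion layer keratin, at -0.28 and -0.28. Krt72 and Krt73, both of the inner root sheath, followed with -0.13 and 0.11 and with 0.04 and -0.73. Krt79, linked to the sebaceous duct, had -0.19 and -0.68. Krt78, at the end, had 2.03 on array 1 and -0.01 on array 2. The mean of Krt78, 1.01, was as large as that of Pkp1, but the arrays differed by more than the mean and it did not pass (limma adjusted p = 0.239). Of the 8 type II keratins, 1 was called, 3 were below 0 on both arrays and 4 had mixed signs.

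Genes that work with these structures were read from 7 lists, with 94 of 128 genes measured. Limma called 2 of the 94, both on the negative side, which is 2.13%, against 2.9% of all genes. An unadjusted p under 0.05 was met by 23, against 27.5% of all genes. The called genes were the non-keratin filament proteins Vim, vimentin of mesenchymal cells, at -0.90 and -1.14, and Nes, nestin of progenitor and endothelial cells, at -0.90 and -1.02. Their adjusted p in limma was 0.0488 and 0.0498, at the edge of the threshold, and each lost its call in 8 of 9 other settings, centring on the median among them (limma adjusted p = 0.0522 and 0.0537). Des, desmin, was on the other side at 0.89 ± 0.16 (SD, n = 2; limma adjusted p = 0.0587), as was Nefl at 0.63 ± 0.41. The median of the 14 measured filament genes was 0.03.

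Adherens junction genes lay near 0, with a median of 0.04 over 15 measured and 0 called by limma (1 at an unadjusted p under 0.05). Cdh1, E-cadherin, had a mean of 0.13 ± 0.21 (SD, n = 2), Ctnna1, alpha-catenin, -0.31 ± 0.05, and Jup, plakoglobin, shared with desmosomes, -0.20 ± 0.02. Ctnnal1 had 0.61 ± 0.20. The other tight junction and polarity genes had a median of 0.01 over 27, with 9 positive and 12 negative on both arrays. The scaffolds Magi3 and Magi1 were at 1.26 ± 0.88 and 0.64 ± 0.21, and Sympk and Dlg1 at -0.60 ± 0.20 and -0.55 ± 0.14. Limma called 0 of the 27, although 10 had an unadjusted p under 0.05.

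In the hemidesmosome, which anchors keratins to the matrix, Itgb4 had a mean of 1.73 ± 0.94 (SD, n = 2; limma adjusted p = 0.0645), Col17a1 0.27 ± 0.03, Cd151 -0.42 ± 0.04 and Lama3 -0.37 ± 0.13. Limma called 0 of 6, with 2 at an unadjusted p under 0.05. Plakin and cornified envelope genes had a median of -0.09 over 12, with Sprr1b at 0.58 ± 0.06, Plec, plectin, at 0.23 ± 0.17, Cdsn, corneodesmosin, at -0.53 ± 0.20 and Sprr1a at -0.34 ± 0.26. Limma called 0 of these 12, with 2 at an unadjusted p under 0.05. Pannexins, channel proteins related in shape to connexins, were negative on both arrays in all 3 measured genes, with Panx1 at -0.47 ± 0.20 and Panx2 at -0.34 ± 0.15. Ccn3, a matricellular protein that binds Gja1, had 1.30 ± 0.79. Limma called 0 of the 5 in this list, with 2 at an unadjusted p under 0.05.

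The regulators of epithelial and mesenchymal state had a median of 0.02 over 15, and limma called 0 (2 at an unadjusted p under 0.05). Klf5, an intestinal crypt factor, had 0.88 ± 0.39 (SD, n = 2) and Tcf3 0.89 ± 0.59. The value of Tcf3 averages more than 1 probe, and these were not read probe by probe. Ovol1 had -0.19 ± 0.03 and Cdx2, the intestinal homeobox factor, -0.38 ± 0.33. The repressors Snai1, Snai2, Zeb1 and Zeb2 of junction genes showed no common side. Snai1 was at 0.13 ± 0.57, Snai2 at -0.06 ± 1.09, Zeb1 at 0.23 ± 0.07 and Zeb2 at -0.34 ± 0.32. For Snai1 and Snai2 the sign differed between arrays. In the same list Twist1 had 0.03 ± 0.20, with mixed signs, and Twist2 0.36 ± 0.13, positive on both arrays. Of the other cell types, colonic epithelium (12 measured, median 0.06), hepatocytes (13, -0.03), bile duct cells (9, 0.03) and leukocytes (6, -0.01) had medians near 0. Single genes lay on both sides. Hepatocyte means ran from -0.95 to 0.80, with 2 positive and 6 negative on both arrays. Limma called 0 of these 13, with 5 at an unadjusted p under 0.05, against 27.5% of all genes. Means ran from -0.42 to 0.82 in colonic epithelium, -1.10 to 0.55 in bile duct cells and -0.29 to 0.51 in leukocytes. In the bile duct list the water channel gene Aqp1 was called on the negative side, at -1.17 and -1.03 (limma adjusted p = 0.0438). Fibroblast markers had a median of -0.24 over 9, with 2 positive and 5 negative on both arrays and means from -2.93 to 1.28. Among them Col1a1, a chain of type I collagen, was called at -2.80 and -3.05 (limma adjusted p = 0.0184), on the same side as Cgnl1. Col1a2 had only -0.38 and -0.11, and Bgn lay on the positive side at 1.78 and 0.77 (limma adjusted p = 0.0765). Neuron and glia markers had a median of 0.16 over 6, with 2 positive and 1 negative on both arrays. The negative one, Tubb3, a neuronal tubulin, was called at -0.94 and -1.19 (limma adjusted p = 0.0475). Of 9 other settings, Col1a1 lost its call in 2, Aqp1 in 5 and Tubb3 in 7. Their part in the ratios of the members was not tested.

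**Figure D4:**
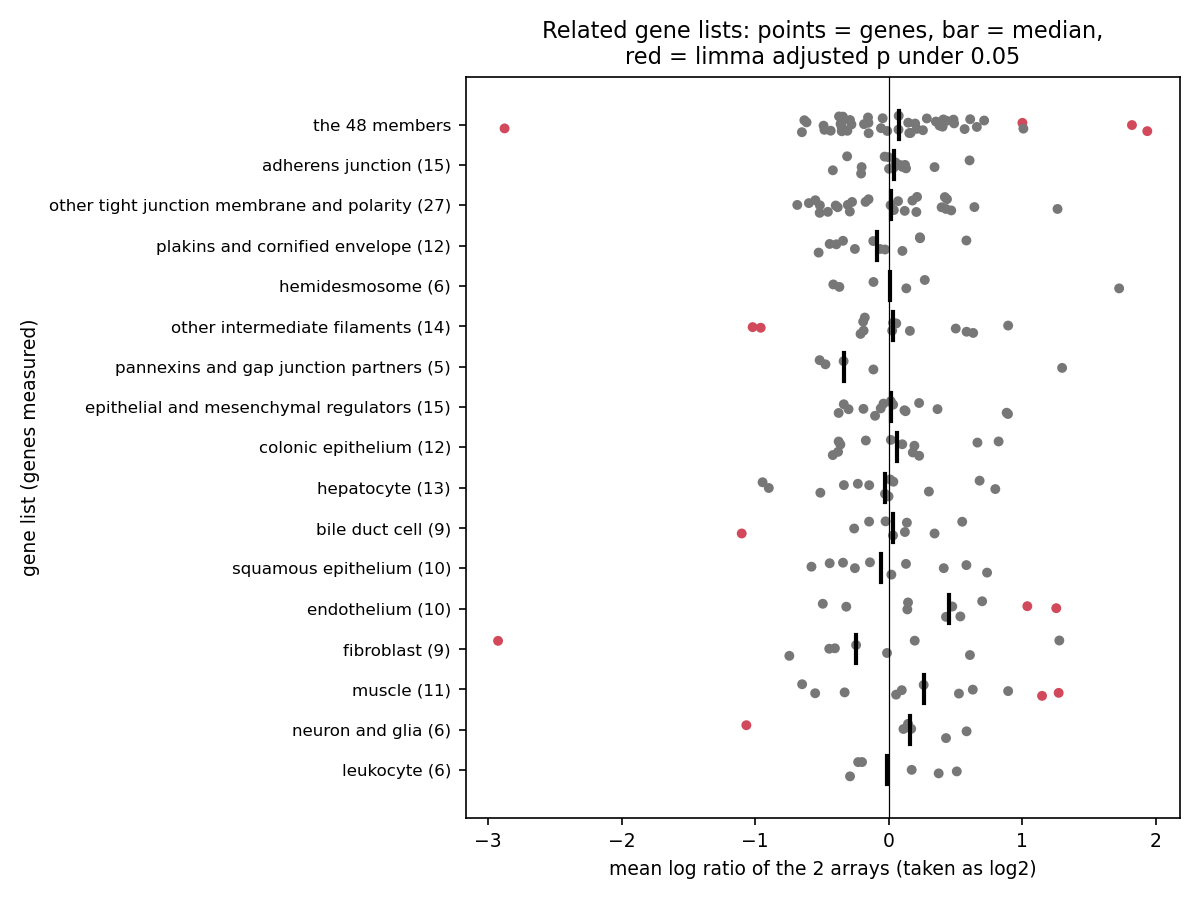
Mean log ratio of both arrays (taken as log2) of each gene (points) in the 48 members, the 7 lists of related genes and the cell type marker lists, with the number of genes measured in brackets, the median as a bar and genes past a limma adjusted p of 0.05 in red. The medians of the members and of the related lists lie near 0 except the pannexin list at -0.34, and the endothelial list has the highest median, 0.45.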

How the data were processed

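RNA of 2 primary tumours and 2 liver metastases was compared on 2 two-colour arrays. The deposited values are 1 log2 ratio per probe and array. The log base is an assumption made from the range of the values, and a natural log was not excluded. The sources used here do not state the numerator, nor the background correction, filter and normalization applied by the authors. Array 1 is rounded to hundredths and array 2 is not. Precision is limited by the number of arrays.

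Values on both arrays were present for 18837 of 23473 probes. Platform symbols (1 per probe, none with several, 6842 probes without) were kept where current in RefSeq (GRCm38.p6; 12622), updated through a unique synonym (3947) or kept as given (62). Probes of a gene were averaged. The mean ratio was compared with 0 in limma 3.58.1 (R 4.3.3; intercept, eBayes, 1 residual and 4.06 prior degrees of freedom), with Benjamini-Hochberg adjustment over 13506 genes and a threshold of 0.05. The script was tested on simulated data. Figures used matplotlib 3.10.9. Over all genes the arrays correlated at r = 0.615, a description over genes that are not independent replicates. Each ratio pairs the tumour and metastasis of 1 array, and whether these came from the same mouse is not stated. P-values rest on the spread of a gene between these arrays (1 degree of freedom) moderated by a spread pooled over all genes (4.06 degrees of freedom). They are not a measure of the gene's own spread alone.

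Named were, per family, called genes, genes at least 1 unit from 0 on both arrays, the 2 highest and 2 lowest means and a fixed set of common members; of related lists, called genes and up to 2 per side by the weaker array. Members named beyond this, the regulators Snai1, Snai2, Zeb1, Zeb2, Twist1 and Twist2, and Cdh1 were added after their values were seen. The same holds for cell type markers that are named but were not called. The members and lists were chosen with earlier results of these data known. Alternatives were centring, scaling, quantile normalization, the fit on probes, the probe nearest 0 per gene, robust or no moderation, a minimum fold of 1.2, leaving out the genes with the widest spread and each array alone.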

Additional observations from a re-analysis of the deposited data

How the results depend on the processing

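The 3 members at least 1 unit from 0 on both arrays, Cgnl1, Gjd4 and Krt88, kept their call in 7 of 9 other settings of the limma fit and lost it under quantile normalization (adjusted p = 0.0641, 0.0641 and 0.0657) and without moderation (0.472, 0.462 and 0.471). Outside those settings and the filter on spread, their adjusted p in limma was 0.0453 or lower. Pkp1 kept its call after centring and without the genes of widest spread, and its adjusted p in limma ran from 0.000617 to 0.462. The count of called genes over all 13506 was 391. It was 241 after scaling to equal spread, 108 with a minimum fold of 1.2 and 4 after quantile normalization. Without moderation, which leaves 1 degree of freedom, it was 0. The fit on probes called 238 of 18837 probes, a set that includes probes without a symbol and so differs from the 13506 genes. For the members, 4 were called, 0 after quantile normalization and 0 without moderation. Leaving out the 5% of genes with the widest spread gave 2721 called genes and 12 members, a filter that narrows the spread the test is judged by. The median of the members was 0.07; it was 0.10 after centring, 0.10 after scaling, 0.030 with the probe nearest 0, -0.012 without the genes of widest spread and -0.023 to -0.02 with 1 array left out. Members at least 1 unit from 0 numbered 3 to 7 with 1 array left out, the 7 on array 1 alone. With the probe nearest 0, Krt20 turned to -0.27 and Krt24 to -0.16. Counting the probe named Gjc1 as Gjd3, an alternative chosen after seeing the data, left 4 members called. Signal over background is not in the table, so dim probes could not be left out. A single array allows no test.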

Other observations

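The way the platform names a probe differed among the members. For 12 of the 48 measured members the platform gives only a clone name or another older symbol, and these included Krt88, Gjd4 and Krt78, which are 3 of the 5 members with a mean at least 1 from 0. The other two, Cgnl1 and Pkp1, have their current symbol. Of these 12, 2 were called by limma, and of the 36 with a current symbol, 2 were called, against 2.9% of all genes. The shares over all genes of each kind of naming are not given here, and the counts were not compared by a test. The median ratio was 0.08 in the 12 members and 0.07 in the 36.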
